A study of Mus musculus with 8 samples.

Results

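The genes described here encode the inhibitors of cyclin-dependent kinases (CDKs), and all 7 were taken by symbol from 55487 gene rows, as Cdkn1a, Cdkn1b and Cdkn1c of the CIP/KIP family and Cdkn2a, Cdkn2b, Cdkn2c and Cdkn2d of the INK4 family. They were measured in 8 bulk Smart-seq2 libraries of sorted mouse haematopoietic stem cells, 4 labelled miR652-KD and 4 labelled NTC. The genotype label gives miR652-KD for a knockdown of the microRNA miR-652 and NTC, an abbreviation the labels do not spell out, for the libraries it is set against, and no other allele or agent. The labels leave unsaid how the knockdown was made, which surface markers defined the sort, how old the mice were and whether replicates came from separate animals, so the p-values of other genes given here measure only the spread between libraries and that spread may be technical. The title of the series concerns pseudouridine synthase 10 in aged stem cells. Because the genes were chosen with their levels in miR652-KD and NTC libraries in view, those levels and differences are a description and carry no test.

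CDK inhibitors slow the passage of a cell from G1 into S phase. CIP/KIP proteins bind complexes of a cyclin and a CDK, above all those with CDK2, whereas INK4 proteins bind CDK4 and CDK6 alone and keep D cyclins from joining them. Either route leaves the retinoblastoma protein less phosphorylated and E2F transcription factors held back. In mice, haematopoietic stem cells are mostly quiescent, and loss of p57, the Cdkn1c product, is known to impair that quiescence, while loss of p18, the Cdkn2c product, is known to expand the stem cell pool.

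Of the 7 genes, 5 were detected and passed the filter on low counts, and Cdkn2a and Cdkn2b had no count in any library. In miR652-KD libraries the levels of Cdkn1b and Cdkn1a lay below those of NTC libraries on average, at 0.599 and 0.352 of the NTC means. Only Cdkn1b had 4 miR652-KD values that all lay under the 4 NTC values. Cdkn2d, Cdkn1c and Cdkn2c overlapped between the groups, with Cdkn2d by far the most abundant per length in both. Levels of 1 gene across libraries are in CPM, counts per M counts in genes with M for the prefix mega, and differences are log2 values fitted by edgeR after TMM scaling, as miR652-KD minus NTC.

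**Figure D1:**
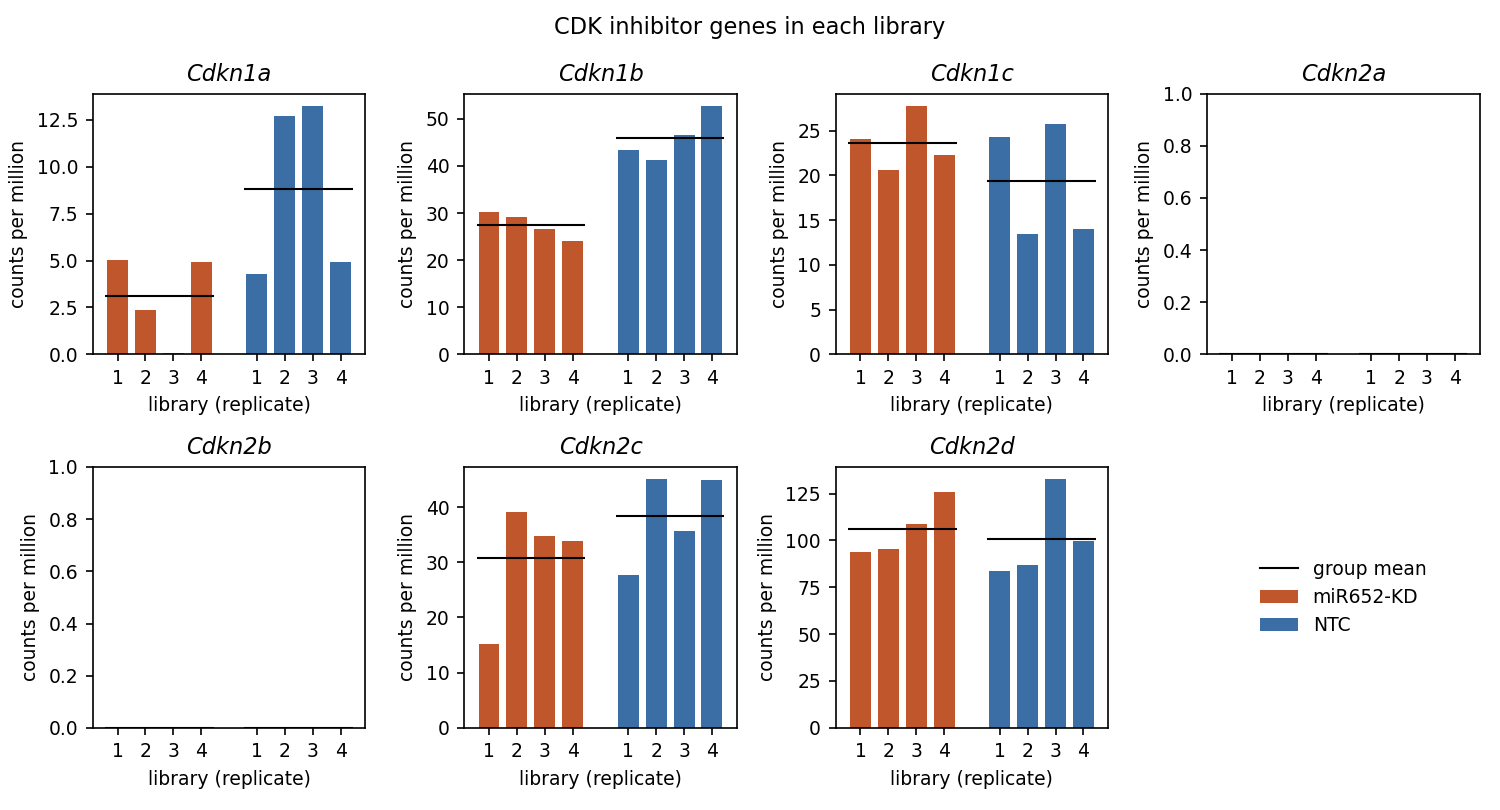
Level of each CDK inhibitor gene (vertical axes, CPM, from 0) in each library (horizontal axes, replicate number), with miR652-KD bars left of NTC bars and a black line at each group mean. Cdkn1b is the gene whose miR652-KD bars, at 24.1 to 30.3 CPM, are all shorter than the NTC bars, at 41.2 to 52.8 CPM, and the panels of Cdkn2a and Cdkn2b are empty because no count was found.

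The libraries held 14.7 to 19.9 M counts in genes in miR652-KD and 14.0 to 16.8 M in NTC, and the TMM factors lay between 0.981 and 1.03. All 10 markers of haematopoietic stem cells on a marker list were detected, with summed levels of 2271 to 2507 CPM in miR652-KD and 2470 to 2921 CPM in NTC libraries. Within that list 3 of the 10 genes had groups without overlap, against 4.5% of all genes tested, and nothing is read from that count. Cd34 had 312 ± 40.3 CPM in miR652-KD and 514 ± 6.29 CPM in NTC (SD, n = 4 each; adjusted p = 0.125 in edgeR, 6.47e-07 in DESeq2 and 0.0489 in limma-voom). Kit had 408 ± 23.3 CPM in miR652-KD and 518 ± 99.6 CPM in NTC (adjusted p = 0.782 in edgeR and 0.365 in DESeq2), and Ly6a, which encodes Sca-1, had 425 ± 80.9 CPM in miR652-KD and 278 ± 26.0 CPM in NTC (adjusted p = 0.598 in edgeR and 0.0221 in DESeq2). The sum thus joins markers that differed in opposite directions. Cd48 and Flt3, listed as low in haematopoietic stem cells, summed to 13.4 to 58.6 CPM in miR652-KD and 41.6 to 63.9 CPM in NTC libraries. Whether the lower Cd34 level lay in stem cells or in other sorted cells was not tested. The 9 erythroid markers summed to 38.2 to 2302 CPM in miR652-KD and 2298 to 5677 CPM in NTC libraries, and the 8 neutrophil markers to 115 to 4027 CPM in miR652-KD and 170 to 13221 CPM in NTC libraries. NTC replicates 3 and 4 stood apart, with 8652 and 13221 CPM of neutrophil markers. Transcripts of other blood cells were thus present in libraries of both groups, and in bulk RNA fewer cells of a type and less RNA per cell cannot be told apart. The row of the targeted microRNA, Mir652, held at most 0.341 CPM in any miR652-KD library and at most 0.137 CPM in any NTC library, since poly(A)-primed libraries do not capture a mature microRNA, so it checks nothing. Its host gene Tmem164 had 80.1, 61.6, 80.1 and 57.5 CPM in miR652-KD replicates 1 to 4, against 134, 90.6, 115 and 69.1 CPM in NTC replicates 1 to 4 (edgeR adjusted p = 0.803).

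The sequences of the knocked-down microRNA were compared with the inhibitor transcripts because a microRNA recognises its targets mainly through the seed, bases 2 to 8 of the mature strand. Both arms, from RefSeq on GRCm38.p6, come from the plus strand of chromosome X and are printed 5′ to 3′ with the seed in capitals.
mmu-miR-652-3p: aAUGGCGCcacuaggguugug
mmu-miR-652-5p: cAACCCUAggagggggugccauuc
The 2 seeds differ, so the arms share no seed group. A 3p site is GCGCCAT (7mer-m8) or CGCCATA (7mer-A1), and a 5p site is TAGGGTT (7mer-m8) or AGGGTTA (7mer-A1), read on the transcript strand of the longest annotated 3′ UTR. Neither 3p word stood in the 3′ UTR of any of the 7 genes, while 503 of 21045 genes with a UTR (2.39%) had at least 1. A 5p word stood in 3 of the 7 genes, against 2574 of the 21045 genes (12.2%). The matches are printed with the matching bases in capitals and 11 bases on either side.
Cdkn1b, 7mer-m8, UTR base 559 of 3439: gttttttgagaTAGGGTTtctctgtgtaa
Cdkn2c, 7mer-m8, UTR base 81 of 373: ttattaaaataTAGGGTTtcctttcgctt
Cdkn1a, 7mer-A1, UTR base 678 of 1334: ctctattttggAGGGTTAatctggtgatc
These words are matches of letters and do not show that the microRNA binds there. Of the 5 detected genes, the 3 that hold a 5p word had lower means in miR652-KD than in NTC libraries. Cdkn1c and Cdkn2d, without one, had higher means in miR652-KD. Only Cdkn1b had groups without overlap, and the genes were chosen on this comparison, so nothing about targeting is read from this match.

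Among the CIP/KIP genes, Cdkn1b encodes p27, which binds cyclin E and CDK2 and accumulates in resting cells. The gene (ENSMUSG00000003031.14) lies on the plus strand at chr6:134920401-134925513 of mm10. Its level was 30.3, 29.1, 26.6 and 24.1 CPM in miR652-KD replicates 1 to 4, against 43.4, 41.2, 46.5 and 52.8 CPM in NTC replicates 1 to 4. The highest miR652-KD library thus stood below the lowest NTC library. The means were 27.5 ± 2.76 CPM in miR652-KD and 46.0 ± 5.02 CPM in NTC (SD, n = 4 each), and the log2 difference was -0.74 (SE 0.19). Behind these values stood 417 to 530 counts per miR652-KD library and 577 to 780 counts per NTC library. Over 17 other settings the log2 difference of Cdkn1b lay between -0.79 and -0.61, the value nearest 0 being that without NTC replicates 3 and 4.

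Transcripts of other blood cells also varied between libraries. The erythroid sums overlapped only because miR652-KD replicate 4 lay just above NTC replicate 3, and the neutrophil sums overlapped more widely. The summed erythroid level was 38.2, 121, 190 and 2302 CPM in miR652-KD replicates 1 to 4, against 2408, 5677, 2298 and 4197 CPM in NTC replicates 1 to 4. The summed neutrophil level was 4027, 392, 115 and 347 CPM in miR652-KD replicates 1 to 4, against 170, 2328, 8652 and 13221 CPM in NTC replicates 1 to 4. Among the genes of the stem cell marker list, Cd34 and Kit lay lower in miR652-KD without overlap, as Cdkn1b did, and Ly6a lay higher. Among markers of other blood cells, the erythroid genes Alas2 and Hbb-bt and the mast cell gene Cpa3 also lay lower without overlap. Alas2 had 1.70 to 17.3 CPM in miR652-KD and 42.2 to 59.2 CPM in NTC libraries (adjusted p = 0.589 in edgeR and 0.000653 in DESeq2). The macrophage genes Cd68 and Csf1r, the latter too low to be tested, lay higher without overlap. Over all genes tested, 4.5% had groups without overlap. The part of transcripts of other blood cells, or of a shift in cell makeup, in the Cdkn1b difference was not tested.

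The promoter of Cdkn1b is shown because it is the gene whose groups did not overlap. RefSeq gives chr6:134920151-134920450 (GRCm38.p6, plus strand), 250 bases before to 50 after the start. Both strands were searched, and capitals mark CCAAT boxes (CCAAT, 3 matches, the last on the minus strand) and a GC box (GGGCGG, 1 match). CCAAT boxes bound by NF-Y and GC boxes bound by Sp1 are known promoter elements of the human gene.
Cdkn1b promoter: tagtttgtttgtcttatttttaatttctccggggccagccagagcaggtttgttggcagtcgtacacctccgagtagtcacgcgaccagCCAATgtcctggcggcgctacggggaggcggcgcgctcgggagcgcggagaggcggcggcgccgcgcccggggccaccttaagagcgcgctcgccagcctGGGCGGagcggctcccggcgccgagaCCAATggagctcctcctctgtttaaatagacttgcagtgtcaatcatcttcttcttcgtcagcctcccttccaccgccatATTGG
Of 32851 mouse promoters of the same length, 37.4% held CCAAT and 35.7% held GGGCGG. The FOXO core GTAAACA, present in 3.65% of promoters, and the E2F words TTTCGCGC or TTTGGCGC, present in 0.813%, were not in this window.

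Lockd, the gene of a long non-coding RNA on the same strand, starts 3579 bases beyond the end of Cdkn1b. Lockd had 26.1, 48.2, 34.7 and 18.1 CPM in miR652-KD replicates 1 to 4, against 33.8, 12.8, 20.04 and 17.2 CPM in NTC replicates 1 to 4. The groups overlapped, and its log2 difference of 0.61 (SE 0.37; edgeR adjusted p = 0.933) had the opposite sign to that of Cdkn1b.

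Cdkn1a encodes p21, the inhibitor that p53 induces after DNA damage. The gene (ENSMUSG00000023067.14) lies at chr17:29090976-29100727 on the plus strand of mm10. Its level was 5.04, 2.37, 0.0503 and 4.91 CPM in miR652-KD replicates 1 to 4, against 4.30, 12.7, 13.2 and 4.92 CPM in NTC replicates 1 to 4. The groups overlapped, because NTC replicates 1 and 4 stood at the level of miR652-KD replicates 1 and 4. The means were 3.09 ± 2.37 CPM in miR652-KD and 8.79 ± 4.84 CPM in NTC (SD, n = 4 each), with a log2 difference of -1.50 (SE 1.01).

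The spread of Cdkn1a within each group was wide. miR652-KD replicate 3 held a single Cdkn1a read, for which the exact Poisson 95% interval is 0.00127 to 0.280 CPM and covers counting error only, as amplified copies are counted as reads. The other miR652-KD libraries held 39 to 85 reads, and the NTC libraries 64 to 222. Without miR652-KD replicate 3 the log2 difference of Cdkn1a was -1.09, and limma-voom with quality weights gave -2.21. The gene was dropped under a filter of 5 CPM in 4 libraries. An overlapping gene of unknown coding status on the minus strand, AC167363.2, had no counts, but reads shared with Cdkn1a may have been set aside as ambiguous.

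Both RefSeq promoters of Cdkn1a were read on GRCm38.p6, and the upstream one at chr17:29090729-29091028 is printed because it holds 2 matches to the p53 half-site, in capitals (both strands searched).
Cdkn1a upstream promoter: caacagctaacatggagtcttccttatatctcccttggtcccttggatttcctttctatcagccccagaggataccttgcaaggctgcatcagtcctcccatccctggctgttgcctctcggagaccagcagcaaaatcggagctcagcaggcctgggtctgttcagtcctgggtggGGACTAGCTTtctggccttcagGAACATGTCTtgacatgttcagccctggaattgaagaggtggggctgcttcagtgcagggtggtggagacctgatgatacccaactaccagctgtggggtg
A p53 half-site stood in 8.36% of the 32851 promoters. The second promoter, at chr17:29093519-29093818, held none and had 2 GC boxes. Among the other inhibitor genes with a promoter in the table, Cdkn2d had 1 p53 half-site.

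Cdkn1c encodes p57, an imprinted gene expressed from the maternal copy, which lies at chr7:143458339-143461050 on the minus strand (ENSMUSG00000037664.13). Its level was 24.1, 20.5, 27.7 and 22.2 CPM in miR652-KD replicates 1 to 4, against 24.3, 13.4, 25.7 and 14.0 CPM in NTC replicates 1 to 4. The NTC libraries split into replicates 2 and 4, the lowest of all 8 libraries, and a pair inside the range of the miR652-KD libraries. The means were 23.6 ± 3.09 CPM in miR652-KD and 19.4 ± 6.55 CPM in NTC (SD, n = 4 each), and the log2 difference was 0.30 (SE 0.30). It lay between 0.17 without NTC replicate 2 and 0.47 without NTC replicate 3. The antisense gene Gm44732, which overlaps Cdkn1c, had no counts. Reads over bases shared by both genes may have been set aside as ambiguous, so this does not show a lack of transcript. Cdkn1c may have lost reads in the same way.

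The INK4 genes fell into a silent pair and a detected pair. Cdkn2a, which encodes both p16Ink4a and p19Arf, lies at chr4:89274471-89294653, and Cdkn2b, which encodes p15, next to it at chr4:89306299-89311039, both on the minus strand. Neither had 1 count among the 128.634 M counts of the 8 libraries, which allows a level of up to 0.0233 CPM over all libraries and of 0.151 to 0.214 CPM in single ones (3 counts). A gene row of Cdkn2a would join p16Ink4a and p19Arf, so both were below detection at this depth.

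Cdkn2c, which encodes p18, lies at chr4:109660876-109667189 on the minus strand (ENSMUSG00000028551.14). Its level was 15.1, 39.2, 34.7 and 33.8 CPM in miR652-KD replicates 1 to 4, against 27.8, 45.01, 35.7 and 44.8 CPM in NTC replicates 1 to 4. Replicate 1 was the lowest library in each group, and the other libraries overlapped. The means were 30.7 ± 10.6 CPM in miR652-KD and 38.3 ± 8.27 CPM in NTC (SD, n = 4 each), and the log2 difference was -0.32 (SE 0.31). Without miR652-KD replicate 1 it was -0.10, and without NTC replicate 1 it was -0.46.

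Cdkn2d, which encodes p19Ink4d, lies at chr9:21288410-21291407 on the minus strand (ENSMUSG00000096472.2). Its level was 94.0, 95.2, 109 and 126 CPM in miR652-KD replicates 1 to 4, against 83.7, 87.1, 133 and 99.8 CPM in NTC replicates 1 to 4. The highest and the lowest library were both NTC. The means were 106 ± 14.8 CPM in miR652-KD and 101 ± 22.3 CPM in NTC (SD, n = 4 each), and the log2 difference was 0.07 (SE 0.18). Its sign changed in 2 of 17 other settings, to -0.02 without miR652-KD replicate 4 and to -0.02 without NTC replicate 1, and it was 0.32 without NTC replicates 3 and 4. Kri1, a ribosome biogenesis gene that starts 441 bases beyond the end of Cdkn2d on the same strand, gave a log2 value of -0.89 (SE 0.43; edgeR adjusted p = 0.860).

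**Figure D2:**
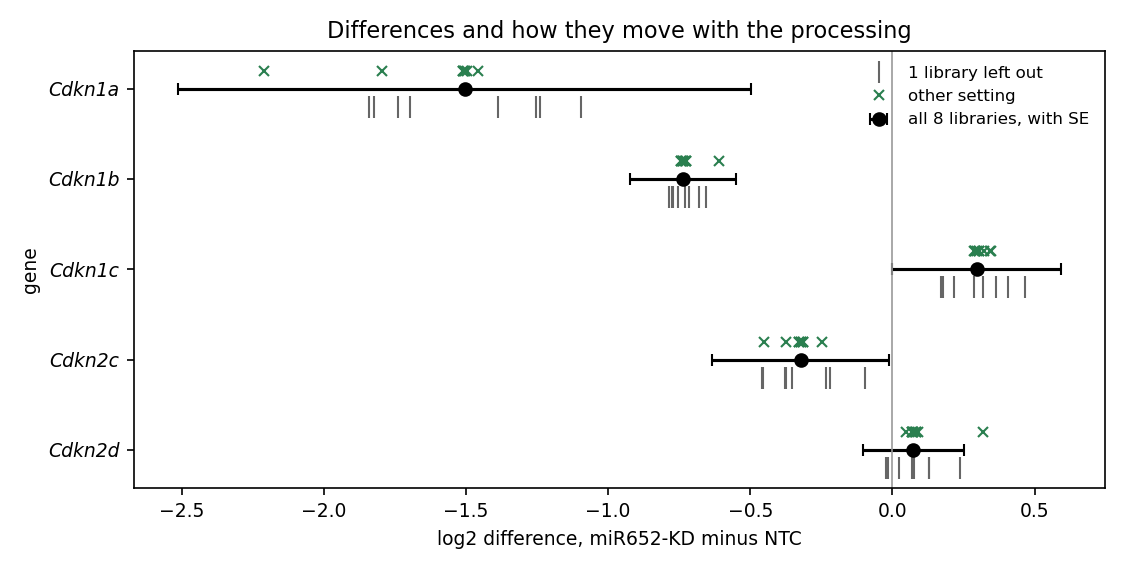
Log2 difference, miR652-KD minus NTC (horizontal axis), of the 5 detected genes (vertical axis), as black points with SE over all 8 libraries, grey ticks with 1 library left out and green crosses for other settings. The marks of Cdkn1a and Cdkn1b stay left of 0, from -2.21 to -1.09 and from -0.79 to -0.61, and those of Cdkn2d lie on both sides.

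Over the 5 tested genes, 2 had a positive and 3 a negative log2 difference, with a median of -0.32, against a median of -0.00434 over all 14360 genes tested. Above 0 lay 49.5% of genes tested. None of the 5 passed an adjusted p of 0.05 in edgeR, against 0.0418% of genes tested (6 of 14360; 0.0279% higher and 0.0139% lower), and none did in DESeq2 (61 of 14328, 0.426%) or limma-voom (7 of 14360, 0.0487%). At an unadjusted edgeR p under 0.05 there was 1 of the 5, against 5.99% of genes tested. Groups without overlap were found for 1 of the 5, against 4.5% of genes tested in either direction, 2.15% with miR652-KD lower and 2.35% with it higher. As the genes were chosen on this comparison, nothing is read from these counts. Without NTC replicates 3 and 4 the log2 differences were -1.46 for Cdkn1a, -0.61 for Cdkn1b, 0.34 for Cdkn1c, -0.25 for Cdkn2c and 0.32 for Cdkn2d.

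Levels were compared between genes only after division by exon length, as CPM per kilobase of the union of exons. In miR652-KD libraries the order was Cdkn2d (67.3 ± 9.39), Cdkn1c (11.6 ± 1.51), Cdkn2c (11.4 ± 3.96), Cdkn1b (6.05 ± 0.607) and Cdkn1a (0.870 ± 0.667 CPM per kilobase, SD, n = 4). In NTC libraries it was Cdkn2d (64.0 ± 14.1), Cdkn2c (14.3 ± 3.08), Cdkn1b (10.1 ± 1.10), Cdkn1c (9.49 ± 3.21) and Cdkn1a (2.47 ± 1.36 CPM per kilobase, SD, n = 4). Cdkn2d at the top and Cdkn1a at the bottom stood clear of their neighbours in every library of each group. Among the middle 3 the ranges overlapped in NTC libraries, and in miR652-KD libraries Cdkn2c, at 5.63 to 14.6, overlapped both Cdkn1c and Cdkn1b, while Cdkn1b, at 5.29 to 6.66, lay below Cdkn1c, at 10.1 to 13.6 CPM per kilobase. With the longest coding transcript as length, Cdkn1c stood above Cdkn1b in NTC libraries too. Averaged over all 8 libraries, the level per kilobase exceeded that of 93.5% of tested genes for Cdkn2d, 69.8% for Cdkn2c, 64.8% for Cdkn1c, 58.0% for Cdkn1b and 20.6% for Cdkn1a. With the longest coding transcript as length these shares were 89.7% for Cdkn2d, 57.4% for Cdkn2c, 51.8% for Cdkn1c, 42.9% for Cdkn1b and 19.6% for Cdkn1a.

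**Figure D3:**
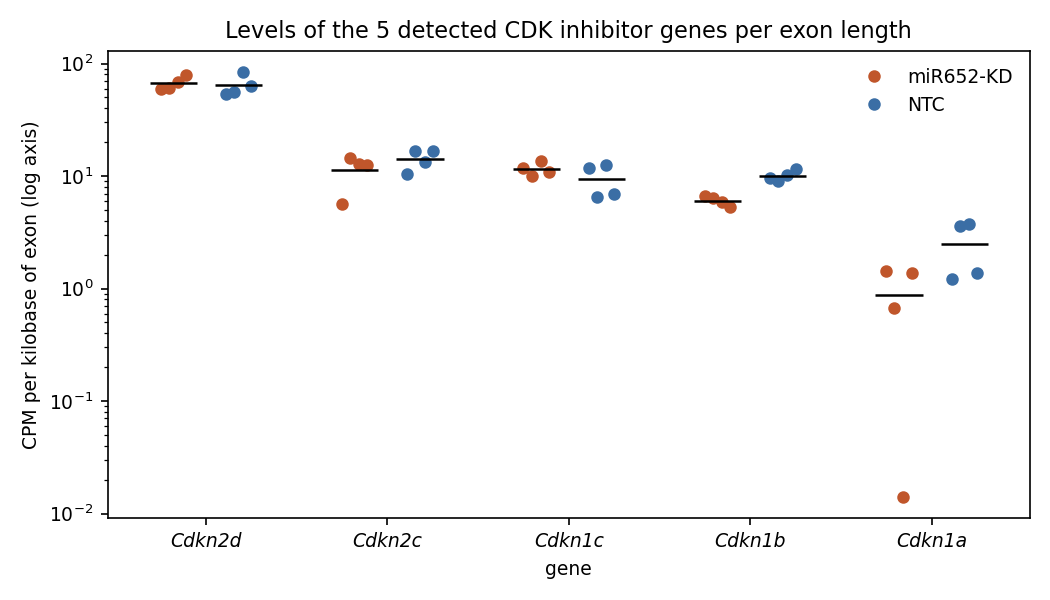
Level of the 5 detected genes in CPM per kilobase of exon (vertical log axis) by gene (horizontal axis), with 1 point per library, miR652-KD left of NTC, and a black line at each group mean. Cdkn2d lies near 65.7 over all libraries and Cdkn1a lowest, with 1 miR652-KD library at 0.0141.

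Summed per kilobase, the 3 CIP/KIP genes gave 18.5 ± 1.37 in miR652-KD and 22.1 ± 3.35 in NTC, and the INK4 genes 78.7 ± 11.4 in miR652-KD and 78.3 ± 14.5 in NTC (CPM per kilobase, SD, n = 4 each). Cdkn2d made up 69.1% ± 2.96 of the summed level of all inhibitors in miR652-KD and 63.4% ± 3.19 in NTC. The share of Cdkn1b was 6.33% ± 1.32 in miR652-KD and 10.2% ± 1.49 in NTC, without overlap between the groups, and the share of Cdkn1c was 12.0% ± 1.90 in miR652-KD and 9.51% ± 3.22 in NTC.

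The inhibitor genes did not vary together from library to library. Over the 8 libraries Pearson's r of log2 CPM was 0.55 for Cdkn1a with Cdkn1b and 0.07 once each group was centred on its mean. The lowest r among the 10 pairs was -0.57, for Cdkn1c with Cdkn2c, and -0.47 after centring. These are descriptions over 8 libraries that differ in depth and in transcripts of other blood cells.

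The genes most like each inhibitor were sought among 10131 protein-coding genes of at least 5 CPM, as those with the highest Pearson's r of log2 CPM over the 8 libraries. For Cdkn1b they were Pms1, a mismatch repair gene (r 0.96, Spearman's rho 0.98), Acss1, a mitochondrial acetyl-CoA synthetase (0.96, 0.90), and Cdk14, a kinase that pairs with cyclin Y (0.95, 0.95). After centring each group on its mean, r was 0.78 for Pms1, 0.52 for Acss1 and 0.69 for Cdk14. For Cdkn1a they were Gpt, an alanine aminotransferase (0.97, 0.76), Plod3, a lysyl hydroxylase (0.97, 0.71), and Zfp236 (0.96, 0.79). Centring on group means left r at 0.95 to 0.96 for all 3, while Spearman's rho, from ranks, was lower. Whether miR652-KD replicate 3, the library with a single Cdkn1a read, set these r values was not tested. For Cdkn1c the genes were Ctsw, Fam83d and Hnrnpl (r 0.96, 0.96 and 0.95), for Cdkn2c Vill, Polk and Chpt1 (0.95, 0.94 and 0.93), and for Cdkn2d Mrps11, Nek3 and Zfp709 (0.94, 0.92 and 0.92). High values are found by searching many genes over 8 points, and nothing about shared control is read from them.

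Around the inhibitors, 9 lists held 151 tested genes of the pathway. None passed an adjusted p of 0.05 in edgeR (0.0418% of all genes tested did) or limma-voom, and 4 did in DESeq2, where 0.426% of genes tested (61 of 14328) did. At an unadjusted edgeR p under 0.05 there were 31 (20.5%), against 5.99% of genes tested, and 16 had groups without overlap, against 4.5% of genes tested. Of the 31, 12 were G2 and M phase genes, which can vary together between libraries. The lists were chosen with earlier results of these data known, so nothing is read from these shares or from those of single lists below.

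The cyclins and kinases that the inhibitors bind had a median log2 difference of 0.04 over 14 tested genes. Cdk6, the kinase that all INK4 proteins bind, had 1236, 1385, 1124 and 1225 CPM in miR652-KD replicates 1 to 4, against 1857, 1964, 1695 and 1583 CPM in NTC replicates 1 to 4. All miR652-KD values lay below all NTC values, as with Cdkn1b, and the log2 difference came to -0.51 (SE 0.09; adjusted p = 0.377 in edgeR and 3.39e-05 in DESeq2). Ccnd2, a D cyclin, lay the other way without overlap, at 925 ± 65.6 CPM in miR652-KD and 692 ± 70.4 CPM in NTC (SD, n = 4 each; log2 difference 0.42; adjusted p = 0.438 in edgeR and 0.00194 in DESeq2). Cdk1, the mitotic kinase, had 89.3 ± 23.4 CPM in miR652-KD and 58.6 ± 6.59 CPM in NTC (SD, n = 4 each; edgeR adjusted p = 0.779).

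Downstream of the kinases, the retinoblastoma and E2F genes had a median log2 difference of 0.25, with 10 of 13 above 0. The values nearest the threshold were 0.48 for the E2F partner Tfdp1, -0.35 for Tfdp2 and 0.51 for E2f3 (edgeR adjusted p = 0.833, 0.846 and 0.853). The 20 S phase genes had a median of 0.25, and the values nearest the threshold included the polymerase subunit gene Pola1 (0.77) and Uhrf1 (0.95), at edgeR adjusted p = 0.781 and 0.817. The 25 G2 and M phase genes had a median of 0.71, with 22 above 0, 12 at an unadjusted p under 0.05 and 6 with miR652-KD higher without overlap. Over all genes tested 49.5% lay above 0, 5.99% had such a p and 2.35% had miR652-KD higher without overlap. Cdca8, a subunit of the chromosomal passenger complex, had 115 ± 34.8 CPM in miR652-KD and 64.2 ± 6.49 CPM in NTC (SD, n = 4 each; adjusted p = 0.598 in edgeR and 0.0426 in DESeq2). Anln and Ckap2l, both of cell division, had log2 differences of 1.33 and 1.16 (edgeR adjusted p = 0.598 for each).

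Summed over the 25 G2 and M phase genes, the level was 965, 1266, 2218 and 1288 CPM in miR652-KD replicates 1 to 4, against 793, 770, 1186 and 954 CPM in NTC replicates 1 to 4. The library with the highest sum, miR652-KD replicate 3, was the one with a single Cdkn1a read. Among NTC libraries it was the reverse, as replicate 3 had both the highest sum and the highest Cdkn1a level, 13.2 CPM. The part of cell cycle state in the levels of Cdkn1a and Cdkn1b was not tested.

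**Figure D4:**
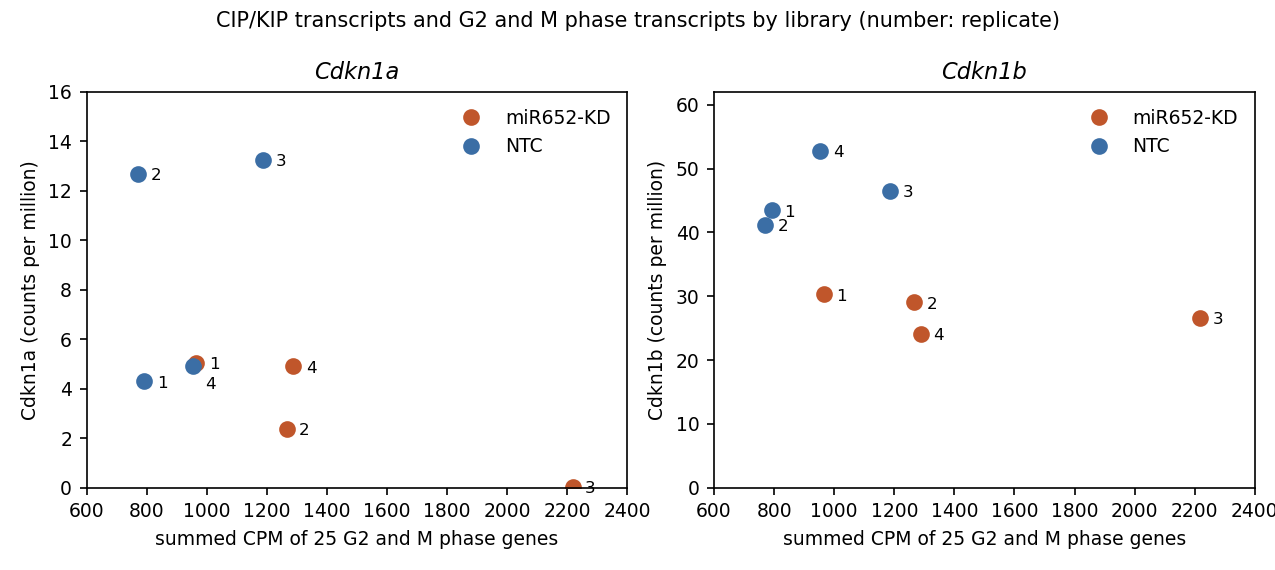
Levels of Cdkn1a and Cdkn1b (vertical axes, CPM) against the summed level of 25 G2 and M phase genes (horizontal axes, CPM), with 1 point per library, its replicate number beside it, and the groups in colour. miR652-KD replicate 3 lies at the far right, at 2218 CPM, and for Cdkn1b all miR652-KD points lie below all NTC points.

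Lists of genes that control the inhibitors had medians nearer to that of all genes. For CIP/KIP protein turnover the median log2 difference was 0.07 over 15 genes, and the 3 of smallest p were Cul4b, a ubiquitin ligase scaffold (-0.62, without overlap), Pcna (0.34) and Cks1b, a cofactor in p27 degradation (0.34), at edgeR adjusted p = 0.832, 0.833 and 0.860. For transcription regulators of the CIP/KIP genes it was 0.07 over 14, led by Sp1 (-0.43), Myc (-0.29) and Smad4 (0.25), at edgeR adjusted p = 0.948, 0.965 and 0.992. For genes that control p53 or are its targets, a list that leaves out Trp53 itself, it was 0.12 over 22, with 13 above 0 and 9, like Cdkn1a, below, led by the nuclease gene Aen (0.49, without overlap), Trp53inp1 (-0.90) and Zmat3 (-1.36), at edgeR adjusted p = 0.803, 0.832 and 0.869.

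The regulators of the Ink4/Arf locus, which keep Cdkn2a and Cdkn2b silent or switch them on, had a median log2 difference of -0.11, with 15 of 21 below 0. The 3 of smallest p were Kmt2a, a histone methyltransferase gene (-0.35), and the transcription factor genes Ets2 (-0.67) and Ets1 (-1.30), at edgeR adjusted p = 0.803, 0.832 and 0.832. The Kcnq1 imprinted domain, in which Cdkn1c lies, had a median of -0.02 over 7 tested genes. Kcnq1ot1, the non-coding RNA that silences the domain on the paternal copy, had 164, 135, 133 and 133 CPM in miR652-KD replicates 1 to 4, against 274, 194, 174 and 216 CPM in NTC replicates 1 to 4. The groups did not overlap, and the log2 difference was -0.60 (SE 0.15; adjusted p = 0.598 in edgeR and 0.0455 in DESeq2). In the same domain Cd81 had 0.27, without overlap, and Slc22a18 had -0.34 (edgeR adjusted p = 0.803 and 0.992).

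**Figure D5:**
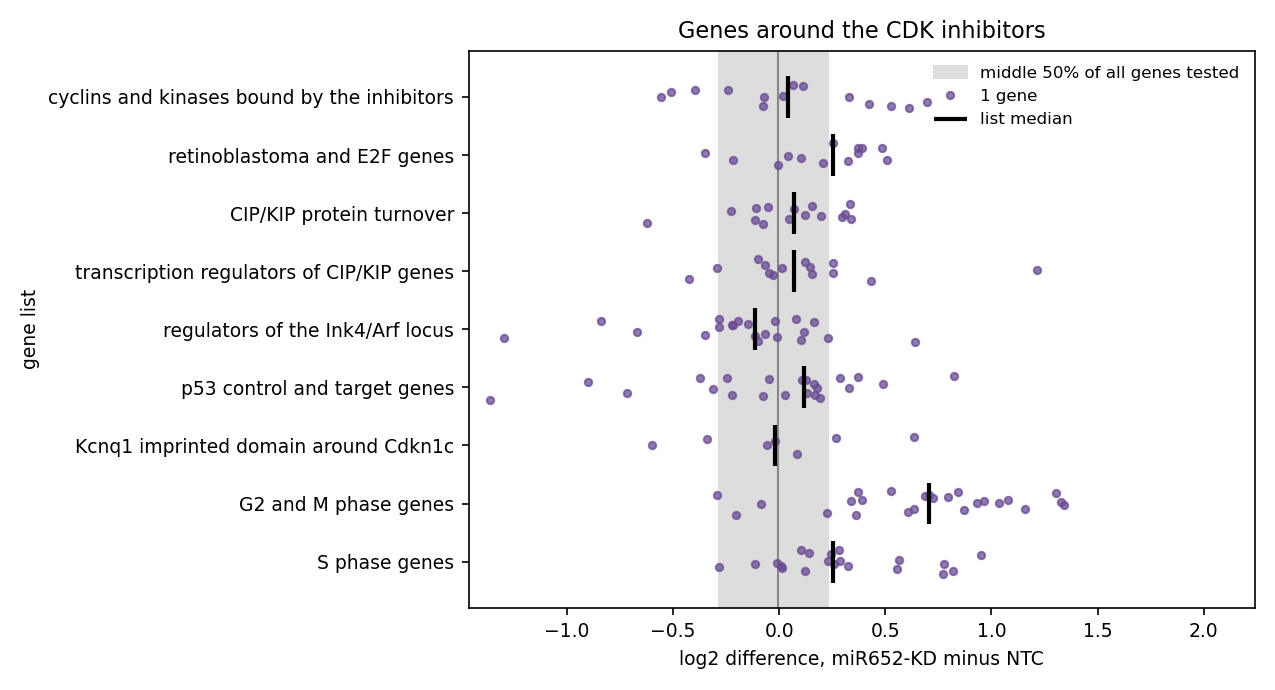
Log2 difference, miR652-KD minus NTC (horizontal axis), of every tested gene (points) in the 9 lists around the inhibitors (vertical axis), with list medians as black bars and the middle 50% of all genes tested in grey, from -0.28 to 0.23. The median of the G2 and M phase genes, at 0.71, lies to the right of the grey band, those of the retinoblastoma and E2F genes and of the S phase genes, at 0.25, lie just past its right edge, and those of the other 6 lists lie inside it.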

How the data were processed

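The 8 deposited files hold raw counts of reads for each gene as whole numbers. The submitters' processing notes name HISAT2 2.1.0, HTSeq 0.11.2, DESeq2 and the mm10 build. The strand option and the annotation were not given in the sources used here. The 5 HTSeq summary lines were kept out: 9.69% to 16.9% of all reads lay outside genes and 8.94% to 12.3% were ambiguous. Smart-seq2 does not mark strand, so reads of antisense genes cannot be separated.

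From the counts, CPM were computed over the total of all gene rows. Log2 differences came from edgeR 4.0.16 (R 4.3.3) with TMM scaling, filterByExpr (minimum count 10, total 15) and robust quasi-likelihood fits of all 8 libraries. P-values were adjusted by Benjamini-Hochberg over 14360 genes and called below 0.05. SE is the log2 difference divided by the square root of F. Log2 CPM for correlations used a prior count of 2. Alternatives were RLE or no composition scaling, DESeq2 1.42.0, limma-voom (limma 3.58.1), other filters, a replicate block, fits without robust moderation, and leaving out libraries. Procedures were tested on simulated data, with a limit on false calls set for edgeR and limma-voom but not for DESeq2.

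Loci and exon lengths came from GENCODE M21, in which 55394 of 55487 identifiers were found, and sequences from RefSeq on GRCm38.p6. The genes and lists were chosen with earlier results of these data known. Named were all 7 inhibitors, per list the genes past the threshold and the 3 of smallest p, and per detected inhibitor the 3 genes of highest r that do not overlap it. Of these, 1 is not reported here. Lengths per kilobase and neighbouring genes within 10 kb were added after the values were seen. No pair of libraries matched within sampling noise (chi-square per degree of freedom 48.7 to 79.2).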

Additional observations from a re-analysis of the deposited data

Results flagged for a closer look

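In 64 groups of 4 libraries, from 34 inhibitor and pathway genes, the library farthest from the others was set against the range of its group by Dixon's test. Chance flags about 1 in 20 groups, and 4 were found, none of them in an inhibitor gene. Ccnd2 had 796.6 CPM in NTC replicate 1, against 643 to 668 CPM in the other NTC libraries. Kmt2a had 297.7 CPM in NTC replicate 1, against 202 to 212 CPM in the other NTC libraries. Kcnq1ot1 had 163.6 CPM in miR652-KD replicate 1, against 132.7 to 135.1 CPM in the other miR652-KD libraries. Ckap2l had 15.8 CPM in NTC replicate 3, against 12.3 to 12.8 CPM in the other NTC libraries.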

How the results depend on the processing

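The signs of Cdkn1a, Cdkn1b, Cdkn1c and Cdkn2c held in every setting run, and that of Cdkn2d changed in 2. The median log2 difference of the tested inhibitors, -0.32, was -0.45 with limma-voom, -0.12 under the filter of 5 CPM in 4 libraries, which drops Cdkn1a, and between -0.46 and -0.10 with 1 library left out. The 6 genes called over all genes became 61 with DESeq2 and 0 without NTC replicates 3 and 4 together, and 0 with any 1 library left out, each of which leaves fewer samples. With the replicate number as a block (replicate block) 0 genes were called, and the median of the inhibitors was -0.38. Same-numbered libraries did not deviate together (correlations -0.03, -0.01, -0.03 and -0.01, none highest with its own number), so no pairing by number was seen. The labels do not say whether such libraries shared an animal or a day. Of the pathway genes 4 were called with DESeq2 and 0 in the main test. The causes of these changes were not tested. Depth limits Cdkn1a, with 1 to 222 reads per library. It also limits Cdkn2a and Cdkn2b, whose lack of counts in a single library allows up to 0.151 to 0.214 CPM (3 counts).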

Other observations

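Other transcripts within 10 kb of the inhibitor genes were also read. Faf1, divergent from Cdkn2c at a distance of 9399 bases, had 64.3 ± 18.3 CPM in miR652-KD and 54.1 ± 15.9 CPM in NTC libraries (SD, n = 4 each; edgeR adjusted p = 0.995). Near the silent Cdkn2a, the non-coding gene Gm12606 had 0.273 and 0.0577 CPM in miR652-KD replicates 1 and 4 and no count in the other libraries. Ap1m2, beside Cdkn2d, had 2.92 CPM in NTC replicate 3 and no count in the other libraries.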
